A study of Saccharomyces cerevisiae with 10 samples.

Results

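The genes described here encode the respiratory chain and the ATP synthase of the yeast Saccharomyces cerevisiae. They were chosen by symbol: COX, QCR, ATP or SDH followed by a number, together with CYC1, CYC7, CYT1, RIP1 and COR1. This rule names 64 genes in the RefSeq gene table, of which 53 had a row among the 5822 genes measured. They comprise 34 subunits and electron carriers (3 of complex II, 9 of complex III, cytochrome c, 9 of complex IV and 12 of complex V) and 19 assembly factors. The remaining 11 were not analysed here: SDH1, SDH6, SDH9, CYC7, COX26, ATP19 and the 5 genes of mitochondrial DNA, COX1, COX2, COX3, ATP6 and ATP8.

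Complex II (succinate dehydrogenase) passes electrons from succinate to ubiquinone, complex III (cytochrome bc1) passes them to cytochrome c, and complex IV (cytochrome c oxidase) passes them to oxygen. Complexes III and IV pump protons across the inner mitochondrial membrane, and complex V, the ATP synthase, uses the returning protons to make ATP with its F1 head, its stalks and its membrane part Fo. Yeast makes most subunits from nuclear genes and a few from mitochondrial DNA, and assembly factors insert haem, copper and iron-sulfur centres or chaperone subunits without staying in the finished complex.

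The study followed cells through a hypo-osmotic shock, a sudden drop in the osmolarity of the medium. The sample titles label a strain delPPT1, a deletion of the phosphatase gene PPT1. It is called labelled ppt1 here and had arrays at 0, 7, 15, 30 and 60 min. The other is labelled wild type, with arrays at 0, 7, 16, 30 and 60 min. Each strain and time had 1 array, so there were 10 arrays in all, and no culture without the shift was followed over time. Each array compared total RNA of 1 sample with a reference, and every value below is a log2 ratio of sample to reference after each array's median was set to 0. The labels give no strain background, medium, shock strength or reference source. Nothing in them says that arrays came from separate cultures, or that a strain's 5 times came from a single one, so p-values measure only spread among the arrays, which could be technical.

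PPT1 itself was not lower in the strain labelled ppt1. It stood at 0.10, 0.40, 0.07, -0.32 and -0.55 on the labelled ppt1 arrays in order of time, and at -0.50, -0.21, 0.07, -0.16 and -0.44 on the wild type arrays. The strain difference was 0.19 ± 0.13 (SE; limma adjusted p = 0.416), so the arrays are called labelled ppt1 throughout. The ratio was taken to run from sample to reference, because the labels call the second channel the reference. GPD1, the glycerol synthesis gene of cells in high osmolarity, had its highest value at 0 min in both strains, and it fell at 7 min by 1.35 on the log2 scale (SE 0.17, limma adjusted p = 0.00329). The arrays held 5440 to 5807 genes each, and 45 of the 53 genes had a value on all 10 arrays and 8 on 9.

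After the shift most subunit genes of the chain and of the ATP synthase were modestly lower than at 0 min, in both strains and in every complex. The assembly factors showed a smaller shift. In labelled ppt1 at 60 min 24 of 33 subunits lay below their own 0 min value, against 50.7% of all genes. For complex IV subunits there it was 5 of 9. The fitted change of the 34 subunit genes at 7, 15-16, 30 and 60 min had medians of -0.31, -0.38, -0.27 and -0.28, and the estimates below 0 numbered 32, 33, 28 and 29. Over the 19 assembly factors the medians were -0.06, -0.14, -0.17 and 0.09, with 14, 17, 12 and 9 estimates below 0. These assembly factor medians are not firm: across the alternatives run the 7 min median lay between -0.13 and -0.02 and the 60 min median between -0.19 and 0.17. At 60 min it was below 0 over genes with all 10 values (-0.13) and without the labelled ppt1 0 min (-0.19), labelled ppt1 15 min (-0.07) or wild type 60 min array (-0.02). The medians over all 5812 genes tested were between -0.02 and -0.00, with 50.6% to 52.8% of estimates below 0. The difference between subunits and assembly factors was not tested. All 4 changes use the same 0 min arrays and are not independent of each other. In RNA of a whole culture, fewer cells of a kind and less RNA per cell cannot be told apart.

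Few single genes passed the test, at a share near that of the genome in the fit used throughout. At 7 min 2 of the 53 passed, SDH4 and COX23, both lower, while 3.03% of all genes passed and 2.58% passed as lower. At 15-16 min 5 passed, all lower (SDH4, QCR10, ATP5, COX17 and COX23), against 7.21% of all genes, 5.64% as lower and 1.57% as higher. The share there was higher over genes with all 10 values (10 of 45, against 418 of 4901 genes). With a trended robust variance 9 of the 53 passed, against 437 of 5812. At 30 min 4 passed, all lower (SDH4, COX7, COX9 and COX17), against 11.5% of all genes, 7.85% as lower and 3.65% as higher. At 60 min SDH4, COX5B, COX23 and ATP14 passed as lower and COX11 as higher, against 12.4% of all genes passing, 8.4% lower and 3.97% higher. The test of any change over the 5 times passed for SDH4, CYC1, COX9, COX17 and COX23, against 9% of all genes. Over all 8 tests, with those between strains and between later times, 11 of the 53 genes passed at least 1 and 42 passed none, against 1130 of 5812 genes (19.4%) passing at least 1, so the share is near the background. Of the 16 calls at single times, 5 were kept under each of 3 other scalings (no centring, quantile normalization and scaling by the median absolute deviation): COX23 at 7 min, QCR10, COX17 and COX23 at 15-16 min and COX9 at 30 min.

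**Figure D1:**
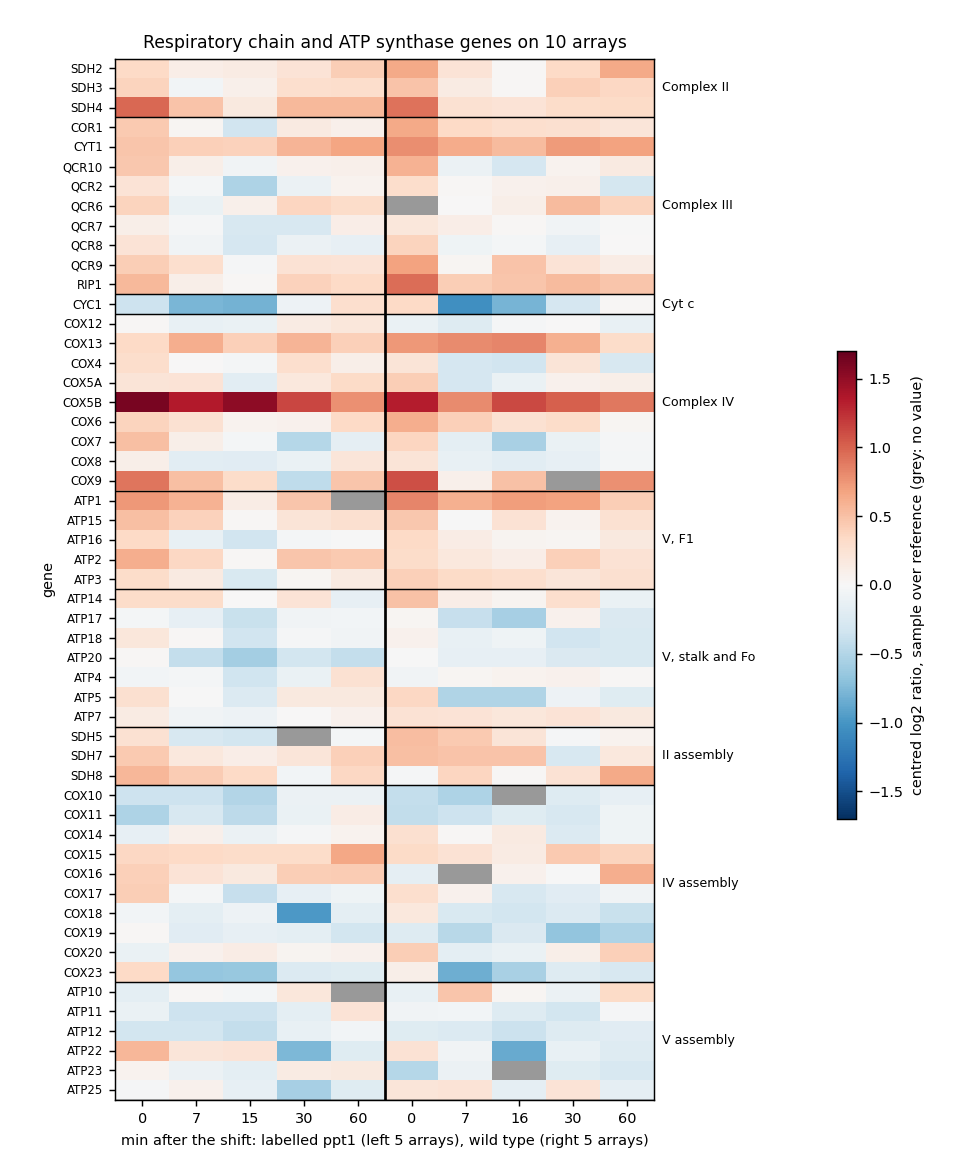
Centred log2 ratio of sample to reference for each of the 53 genes (rows, by complex and role) on the 5 labelled ppt1 arrays and the 5 wild type arrays (columns, in order of time); grey cells have no value. The first column of each strain, 0 min, is redder than the later ones in most subunit rows, with a median over the 34 subunits of 0.33 in labelled ppt1 and 0.40 in wild type.

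Seen array by array, the median of the 34 subunits was 0.33, 0.07, -0.05, 0.14 and 0.21 at 0, 7, 15, 30 and 60 min in labelled ppt1. In wild type it was 0.40, 0.06, 0.05, 0.21 and 0.14 at 0, 7, 16, 30 and 60 min. In both strains the 0 min array was the highest and the array at 15 or 16 min the lowest, in wild type barely below the 7 min array. The median of the 19 assembly factors was 0.02, -0.03, -0.14, -0.11 and 0.01 in labelled ppt1, and 0.10, -0.05, -0.15, -0.20 and -0.07 in wild type. That range was narrower than for the subunits in labelled ppt1 and only slightly narrower in wild type. The median change from 0 min in wild type was -0.08, -0.16, -0.25 and -0.02 over the assembly factors, in order of time. Over the subunits it was -0.35, -0.35, -0.30 and -0.33.

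Many subunits on the labelled ppt1 arrays shared their time of lowest value, while in wild type the lows were spread over the later times. Of 33 subunits with all 5 labelled ppt1 values, 24 (72.7%) were lowest at 15 min, while 17.5% of all genes were. In wild type 11 of 32 (34.4%) were lowest at 16 min, against 18.9% of all genes, and 7, 5 and 8 were lowest at 7, 30 and 60 min. The difference between the strains was not tested. The highest value was at 0 min for 24 of 33 subunits in labelled ppt1 and 25 of 32 in wild type (78.1%), against 29.8% and 26.1% of all genes. At 15-16 min 30 of 33 subunits (90.9%) were below their own 0 min value in both strains, as were 11 of 17 assembly factors (64.7%) and 31.9% of all genes.

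The 0 min arrays also had the widest spread of values over all genes, and this moved with the result. The SD of the log2 ratios was 0.50 at 0 min and 0.35 to 0.37 later in labelled ppt1, and 0.52 at 0 min and 0.39 to 0.45 later in wild type. With the arrays brought to one distribution (quantile normalization), the subunit median at 60 min was -0.07. None of the 53 genes passed there, while 451 of all 5812 genes did. With each array divided by its median absolute deviation the 60 min median was -0.19, again with none passing, against 481 of all genes. The earlier times moved less, and of these 30 min moved the most. Under the alternatives that kept every array, the subunit median was from -0.31 to -0.24 at 7 min and from -0.38 to -0.31 at 15-16 min. At 30 min it was from -0.27 to -0.15. There 1 of the 53 genes passed with quantile normalization, against 438 of all genes. With division by the median absolute deviation 1 passed, against 451. With quantile normalization 3 of the 53 genes still passed at 15-16 min, against 208 of all genes. The part of the array spread in the result was not tested further.

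**Figure D2:**
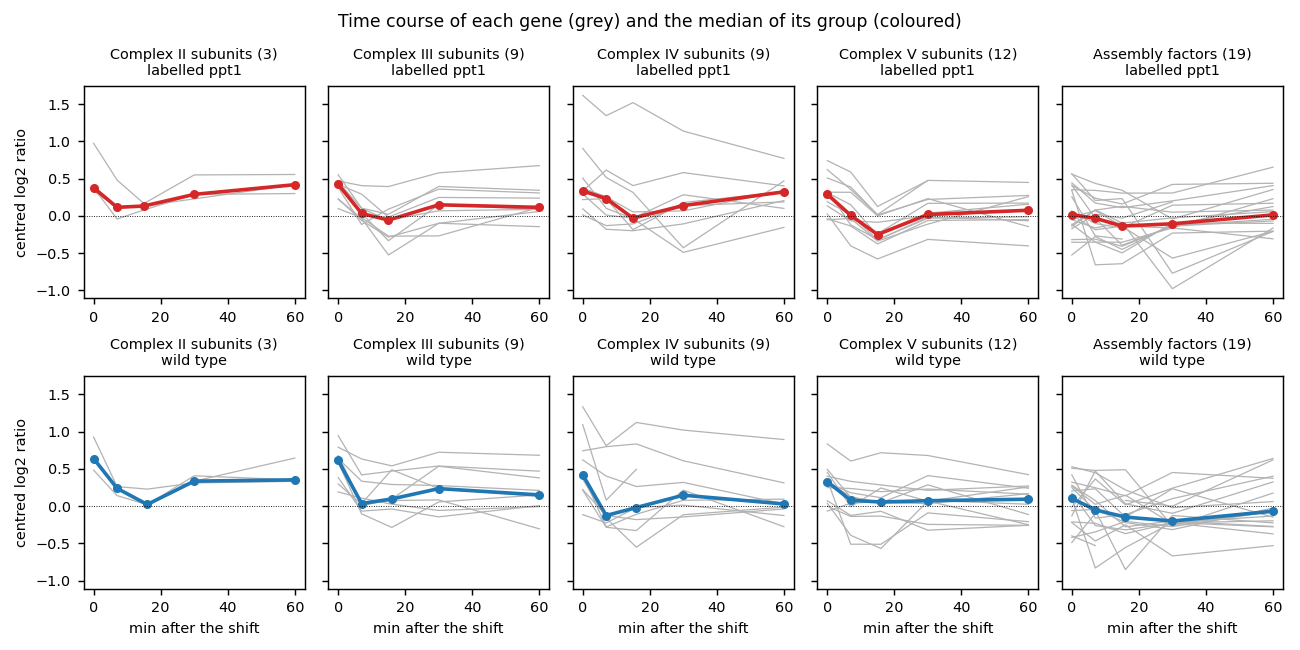
Centred log2 ratio against minutes after the shift for each gene (grey lines) and the median of its group (coloured), with labelled ppt1 above and wild type below; CYC1 is not drawn. Medians of complexes II to V lie highest at 0 min in wild type and, except for complex II, in labelled ppt1.

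Complex II was represented by SDH2, the iron-sulfur subunit, and by SDH3 and SDH4, which anchor the enzyme in the membrane and bind ubiquinone. SDH4 stood at 0.97, 0.48, 0.17, 0.55 and 0.56 over the labelled ppt1 times and at 0.93, 0.26, 0.23, 0.31 and 0.33 over the wild type times. Both 0 min arrays were above every later array. SDH4 fell at 15-16 min by 0.75 on the log2 scale (SE 0.13, limma adjusted p = 0.0081), or 1.69-fold. It also passed at 7, 30 and 60 min, with changes of -0.58 ± 0.13, -0.52 ± 0.13 and -0.51 ± 0.13 (limma adjusted p = 0.0466, 0.0314 and 0.0337). The 15-16 min call was lost without the wild type 0 min array (-0.70, limma adjusted p = 0.0792). The 7 min call was lost without any of 8 arrays (all but the pair at 15-16 min), with values from -0.63 to -0.53. At 30 min and at 60 min it was lost without either array of that time, of 0 min or of 7 min, with values from -0.58 to -0.45 and from -0.56 to -0.45.

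SDH2 and SDH3 had estimates in the same direction at 7, 15-16 and 30 min without passing. SDH2 ranged from 0.02 to 0.64, with its lowest value on the wild type 16 min array and its highest on the wild type 60 min array. SDH3 ranged from -0.04 on the labelled ppt1 7 min array to 0.48 on the wild type 0 min array. Of the complex II assembly factors, SDH5, which helps attach the flavin cofactor to the catalytic subunit, stood at 0.26, -0.27, -0.31 and -0.03 at 0, 7, 15 and 60 min in labelled ppt1, with no value at 30 min. In wild type it stood at 0.53, 0.45, 0.22, -0.02 and 0.06. Every later array was below the 0 min array of its strain, and the largest fitted change was -0.61 ± 0.21 at 30 min (limma adjusted p = 0.1). SDH7 ranged from -0.27 to 0.51 and SDH8, a chaperone of the flavin-bearing subunit, from -0.04 to 0.64.

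Complex III had 9 measured subunits, and all 9 had estimates below 0 at 7 min and at 15-16 min. Their median change was -0.37 at 7 min and -0.47 at 15-16 min, with a range at 15-16 min from -0.69 to -0.16, and 1 of the 9 passed there. QCR10, a small accessory subunit, stood at 0.46, 0.10, -0.06, 0.07 and 0.09 in labelled ppt1 and at 0.59, -0.10, -0.29, 0.06 and 0.15 in wild type. The 0 min arrays were the highest by a clear margin in each strain. QCR10 fell by 0.69 at 15-16 min (SE 0.14, limma adjusted p = 0.0146), or 1.62-fold. The call was lost without the wild type 0 min array (-0.58, limma adjusted p = 0.138) and without the wild type 16 min array (-0.58, limma adjusted p = 0.108).

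COR1, a core subunit, had the next largest change of the complex without passing. It stood at 0.45, 0.03, -0.33, 0.15 and 0.09 in labelled ppt1 and at 0.64, 0.33, 0.29, 0.28 and 0.21 in wild type, and the 15-16 min change was -0.56 ± 0.15 (limma adjusted p = 0.0512). The drop at 15 min was a single low array in labelled ppt1, while the later wild type arrays were close to each other. CYT1, cytochrome c1, and RIP1, the Rieske iron-sulfur protein, carry electrons within the complex. CYT1 was above 0 on all 10 arrays, between 0.39 and 0.79, and RIP1 between 0.02 and 0.95. QCR2, the other core protein, ranged from -0.52 on the labelled ppt1 15 min array to 0.30 on the wild type 0 min array, QCR6 from -0.12 to 0.54 with no value at wild type 0 min, and QCR7 from -0.27 to 0.19. QCR8 ranged from -0.28 to 0.38 and QCR9 from -0.02 to 0.68.

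Cytochrome c, the soluble carrier between complexes III and IV, is encoded by CYC1 in aerobic cells and by CYC7, an isoform gene not analysed here. CYC1 stood at -0.36, -0.78, -0.80, -0.08 and 0.29 in labelled ppt1 and at 0.34, -1.04, -0.79, -0.29 and 0.03 in wild type. It was lowest at 7 and at 15 or 16 min in both strains. At 60 min it was above its 0 min value in labelled ppt1 and below it in wild type. The test over all times passed (limma adjusted p = 0.0294). No single time did, with changes of -0.90 ± 0.22 at 7 min (limma adjusted p = 0.0632), -0.79 ± 0.22 at 15-16 min (limma adjusted p = 0.0604), -0.17 ± 0.22 at 30 min and 0.17 ± 0.22 at 60 min.

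The size of the CYC1 change rested on the 0 min arrays, which stood at -0.36 in labelled ppt1 and 0.34 in wild type. Without the labelled ppt1 0 min array the 7 min change was -1.33 and passed (limma adjusted p = 0.0106), and the 15-16 min change was -1.22 and passed (limma adjusted p = 0.00684). Without the wild type 0 min array they were -0.46 (limma adjusted p = 0.446) and -0.35 (limma adjusted p = 0.36). The change after the shift was 0.87 ± 0.21 higher in labelled ppt1 than in wild type, with an unadjusted p of 0.00273 and a limma adjusted p of 0.992.

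Complex IV had 9 measured nuclear subunits, with medians of -0.34, -0.35, -0.28 and -0.31 at the 4 later times. COX5A and COX5B encode alternative forms of one subunit, COX5A in aerobic and COX5B in hypoxic cells. COX5B stood at 1.62, 1.35, 1.52, 1.14 and 0.77 in labelled ppt1 and at 1.33, 0.81, 1.12, 1.02 and 0.89 in wild type. COX5A stood at 0.22, 0.23, -0.19, 0.18 and 0.32 in labelled ppt1 and at 0.42, -0.28, -0.11, 0.08 and 0.09 in wild type. The ratio of COX5B to the reference was above 0 on every array and lowest at 60 min in labelled ppt1 and at 7 min in wild type, while that of COX5A was lowest at 15 min in labelled ppt1 and at 7 min in wild type.

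COX5B fell at 60 min by 0.64 (SE 0.16, limma adjusted p = 0.032), or 1.56-fold, and COX5A had a change of -0.11 ± 0.17 there (limma adjusted p = 0.723). At 15-16 min the order was the other way, with -0.15 ± 0.16 for COX5B and -0.47 ± 0.17 for COX5A (limma adjusted p = 0.643 and 0.14), and the difference between the genes was not tested. Quantile normalization gave 0.057 for COX5B at 60 min. The call was lost without the labelled ppt1 60 min array (-0.41), the labelled ppt1 0 min array (-0.62) or the wild type 0 min array (-0.67). The genes are close relatives, and signal shared between their array spots was not tested.

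COX7 and COX9 encode small subunits of complex IV. COX9 stood at 0.91, 0.52, 0.32, -0.43 and 0.47 in labelled ppt1 and at 1.09, 0.08, 0.49 and 0.78 at 0, 7, 16 and 60 min in wild type, with no value at 30 min. Its 30 min change of -1.40 ± 0.24 (limma adjusted p = 0.00604, 2.63-fold lower) is the largest among the 53 genes, and it rests on the single labelled ppt1 array, which is the lowest of the 9. The test over all times also passed (limma adjusted p = 0.0372).

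COX7 stood at 0.51, 0.10, -0.04, -0.49 and -0.15 in labelled ppt1 and at 0.36, -0.16, -0.55, -0.12 and -0.01 in wild type. The lowest array was at 30 min in labelled ppt1 and at 16 min in wild type. COX7 fell by 0.74 at 30 min (SE 0.20, limma adjusted p = 0.0374). That call was lost without the labelled ppt1 30 min array (-0.45), the labelled ppt1 0 min array (-0.70) or the wild type 0 min array (-0.78), with limma adjusted p values of 0.266, 0.193 and 0.135.

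The other complex IV subunits passed no test. COX4 ranged from -0.33 to 0.30, COX6 from 0.03 to 0.62 and COX8 from -0.20 to 0.22. COX12 stayed between -0.23 and 0.19. COX13 was above 0 on all 10 arrays, between 0.31 and 0.83, with its highest value at 16 min in wild type.

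Complex V had 12 measured subunits under the symbol rule, and all 12 had estimates below 0 at 15-16 min, where their median was -0.37. The 5 subunits of the F1 head and its central stalk (ATP1 and ATP2, the alpha and beta subunits, with ATP3, ATP15 and ATP16) had estimates below 0 at each of the 4 later times, with medians of -0.20, -0.37, -0.23 and -0.22, and none passed. ATP1 stood between 0.13 on the labelled ppt1 15 min array and 0.83 on the wild type 0 min array, and ATP2 between 0.02 on the labelled ppt1 15 min array and 0.62 on the labelled ppt1 0 min array. ATP3 ranged from -0.26 to 0.40, ATP15 from -0.01 to 0.51 and ATP16 from -0.32 to 0.34.

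The 7 subunits of the peripheral stalk and Fo had medians of -0.19, -0.37, -0.15 and -0.29. ATP5, the stalk subunit that touches the top of F1, stood at 0.27, -0.00, -0.24, 0.17 and 0.17 in labelled ppt1 and at 0.35, -0.51, -0.51, -0.09 and -0.21 in wild type. It fell at 15-16 min by 0.69 (SE 0.15, limma adjusted p = 0.0251), or 1.61-fold. The call was lost without the wild type 0 min array (-0.47, limma adjusted p = 0.211), the wild type 16 min array (-0.68, limma adjusted p = 0.12) or the labelled ppt1 15 min array (-0.69, limma adjusted p = 0.0771).

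ATP14, another stalk subunit, stood at 0.32, 0.32, 0.00, 0.23 and -0.14 in labelled ppt1 and at 0.49, 0.12, 0.05, 0.29 and -0.11 in wild type. The 60 min arrays were the lowest in both strains. ATP14 fell at 60 min by 0.53 (SE 0.13, limma adjusted p = 0.0282), or 1.45-fold. It no longer passed without either 60 min array or either 0 min array, with values from -0.63 to -0.44. The other 5 stalk and Fo genes passed no test. ATP20, linked to the pairing of ATP synthases, was at its lowest, -0.58, at 15 min in labelled ppt1, and ATP17 at its lowest, -0.57, at 16 min in wild type. ATP4 ranged from -0.34 to 0.26, ATP7 from -0.09 to 0.25 and ATP18 from -0.32 to 0.19.

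Of the 10 measured complex IV assembly factors, COX17, COX23 and COX11 passed at least 1 of the 8 tests, where 19.4% of all genes did. COX17, which delivers copper to the enzyme, stood at 0.41, -0.03, -0.39, -0.14 and -0.07 in labelled ppt1 and at 0.28, 0.08, -0.28, -0.20 and -0.06 in wild type. The lowest array was at 15 or 16 min in each strain. COX17 fell by 0.68 at 15-16 min (SE 0.13, limma adjusted p = 0.0105) and by 0.51 at 30 min (SE 0.13, limma adjusted p = 0.0281), with a limma adjusted p of 0.0435 over all times. The 15-16 min call was lost without the labelled ppt1 0 min array (-0.60, limma adjusted p = 0.0999) or the labelled ppt1 15 min array (-0.61, limma adjusted p = 0.0521). The 30 min call was lost without either 0 min or either 30 min array (-0.60 to -0.43).

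COX23, a small intermembrane-space protein related to COX17, stood at 0.34, -0.66, -0.64, -0.23 and -0.20 in labelled ppt1 and at 0.10, -0.83, -0.56, -0.22 and -0.28 in wild type. All 8 later arrays lay below both 0 min arrays, and the lowest value came at 7 min in each strain. It fell by 0.97 at 7 min (SE 0.13, limma adjusted p = 0.00396), or 1.95-fold, and by 0.82 at 15-16 min (SE 0.13, limma adjusted p = 0.00462). At 60 min the change was -0.46 ± 0.13 (limma adjusted p = 0.0462), and over all times the limma adjusted p was 0.00691. The 7 min call was lost without the wild type 7 min array (-0.91, limma adjusted p = 0.0577) and the 15-16 min call without the labelled ppt1 0 min array (-0.72, limma adjusted p = 0.061). The 60 min call was lost without any of the 8 arrays other than those at 15-16 min (-0.56 to -0.36).

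COX11, which inserts copper into the catalytic subunit, was the gene that rose. It stood at -0.52, -0.28, -0.45, -0.12 and 0.13 in labelled ppt1 and at -0.42, -0.35, -0.21, -0.28 and -0.07 in wild type. The 60 min array was the highest and the 0 min array the lowest in both strains. COX11 rose at 60 min by 0.50 ± 0.14 (limma adjusted p = 0.0485), or 1.42-fold, a call lost without any of the 8 arrays other than those at 15-16 min (0.39 to 0.61).

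The other complex IV factors passed no test. COX10 and COX15, which make haem O and haem A, ranged from -0.53 to -0.10 and from 0.14 to 0.65. COX18, which inserts part of a subunit into the membrane, was at -0.98 on the labelled ppt1 30 min array, and its other 9 values lay between -0.37 and 0.17. COX14 and COX20, which act on mitochondrially encoded subunits, ranged from -0.24 to 0.27 and from -0.16 to 0.42. COX16 ranged from -0.15 to 0.62 and COX19 from -0.67 to 0.02.

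The 6 measured complex V factors passed no test and had medians of 0.03, -0.16, -0.03 and 0.15. ATP22, needed to translate a mitochondrial ATP synthase mRNA, stood at 0.57, 0.21, 0.23, -0.77 and -0.21 in labelled ppt1 and at 0.25, -0.06, -0.85, -0.13 and -0.23 in wild type. The low arrays were at different times in the 2 strains, and the 30 min change was -0.85 ± 0.30 (limma adjusted p = 0.101). ATP11 and ATP12, the chaperones of F1, ranged from -0.35 to 0.23 and from -0.41 to -0.04. ATP10, ATP23 and ATP25 had ranges of -0.17 to 0.47, -0.49 to 0.17 and -0.57 to 0.23.

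**Figure D3:**
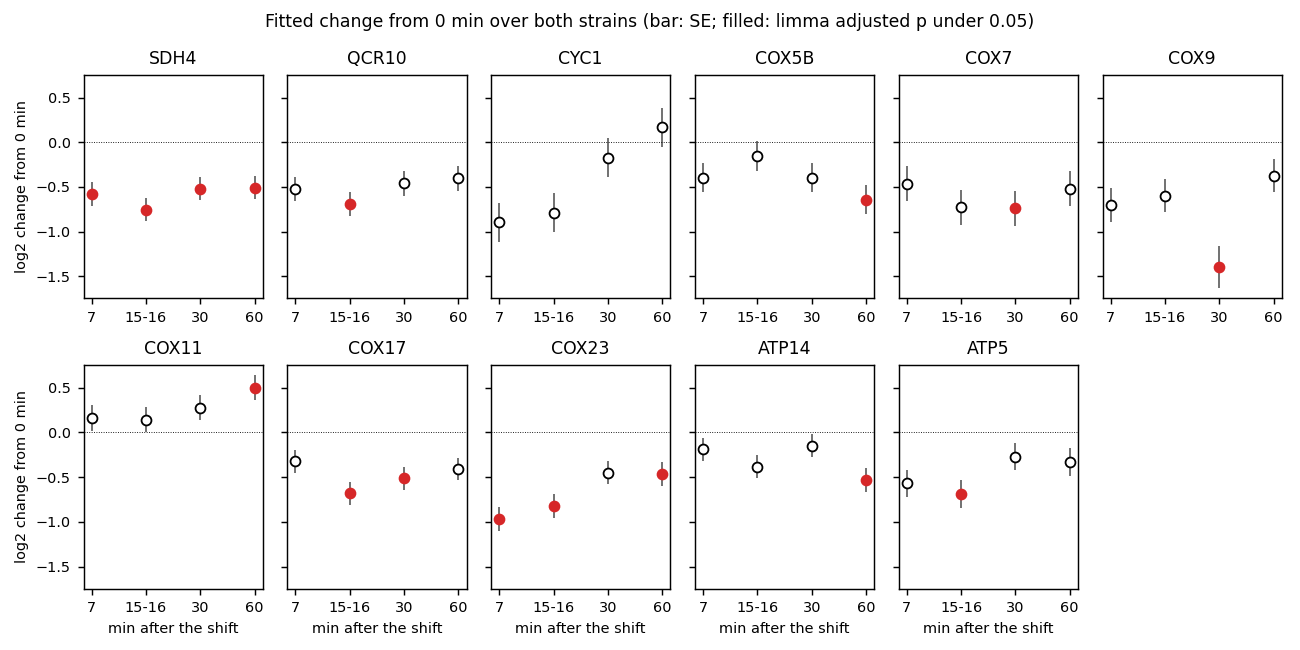
Fitted log2 change from 0 min over both strains at 7, 15-16, 30 and 60 min for the 11 genes that passed at least 1 test; bars are standard errors and filled points have a limma adjusted p under 0.05. COX11 is the gene with a filled point above 0, at 0.50, and CYC1 has none, since it passed the test over all times.

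Pairs of subunit genes had higher correlations across the 10 arrays than pairs of assembly factors. The median Pearson r over pairs of genes with 10 values was 0.45 for 31 subunits, 0.14 for 14 assembly factors and 0.23 between the groups, against -0.00 over pairs of all 4901 genes. Within complexes it was 0.68 for 8 complex III genes, 0.35 for 8 complex IV genes and 0.43 for 11 complex V genes. All pairs share the same arrays and the same 0 min points, so these values are descriptions.

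The strains were compared to see whether the response depends on the PPT1 label. None of the 53 genes passed for a difference between labelled ppt1 and wild type over all times, where 3.82% of all genes passed. An unadjusted p under 0.05 was found for 10 of the 53 and for 1353 of all 5812 genes tested. The lowest were SDH5 (-0.40 ± 0.12, limma adjusted p = 0.086), RIP1 (-0.29 ± 0.09, limma adjusted p = 0.0812) and COX19 (0.27 ± 0.08, limma adjusted p = 0.0904), with negative values lower in labelled ppt1. For a different change after the shift none of 52 genes passed and 0% of all 5782 genes tested did. At an unadjusted p under 0.05 there were 1 of the 52, CYC1, and 274 of all genes. With so few arrays these differences are imprecise, and a p above the threshold does not show that the strains responded alike.

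**Figure D4:**
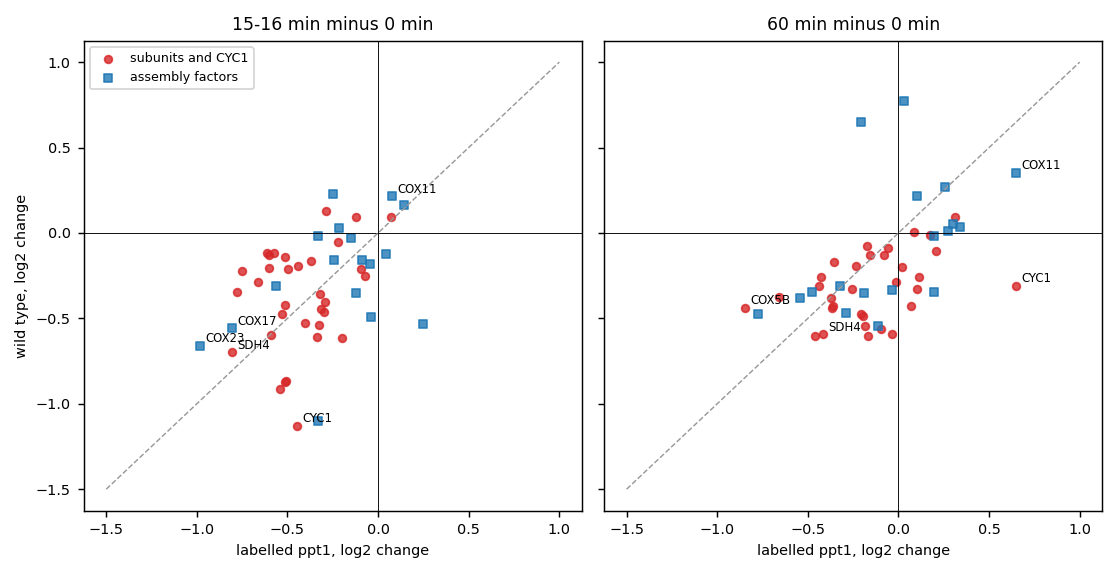
Log2 change from the strain's own 0 min array in labelled ppt1 (horizontal) and wild type (vertical) at 15-16 min (left) and 60 min (right), for subunits with CYC1 (circles) and assembly factors (squares); the dashed line marks equal change. At 15-16 min 30 of 33 subunits lie in the lower left part, and at 60 min 23 of 32 do.

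From 15-16 to 60 min the median estimate was 0.19 over the subunits and 0.27 over the assembly factors, against -0.003 over all genes. This comparison was added after the values were seen. None of the 53 genes passed, where 0.912% of all genes did. An unadjusted p under 0.05 was found for 10 of the 53 and for 759 of all 5812 genes tested. The largest estimate was that of CYC1 at 0.96 ± 0.22 (limma adjusted p = 0.082), which passed without either 0 min array (limma adjusted p = 0.0166 without labelled ppt1 and 0.0168 without wild type).

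Other genes serve these complexes outside the naming pattern, and they passed at shares near the background at most times. Calls of genes outside the pattern, here and below, were not checked against other scalings or left-out arrays. The 28 measured were mostly assembly factors and regulators, but included TIM11, a gene of an ATP synthase subunit. Of these 28, 2, 2, 1 and 2 passed as lower and 0, 0, 1 and 2 as higher at the 4 later times. In all 7.14%, 7.14%, 7.14% and 14.3% of them passed, against 3.03%, 7.21%, 11.5% and 12.4% of all genes. INH1, the peptide that inhibits ATP hydrolysis by the ATP synthase, stood at 0.86, 0.27, -0.12, 0.47 and -0.36 in labelled ppt1 and at 1.30, 0.46, 0.50, 0.77 and 0.35 in wild type. INH1 fell at 60 min by 1.08 (SE 0.15, limma adjusted p = 0.00166) and was lower in labelled ppt1 than in wild type by 0.45 (-0.45 ± 0.10, limma adjusted p = 0.0388). STF1, related to INH1, stood at 1.29, 0.49, 0.41, 0.00 and 0.29 in labelled ppt1 and at 1.30, 1.01, 0.42, 0.55 and 0.61 in wild type, and it fell at 30 min by 1.02 (SE 0.17, limma adjusted p = 0.00356). INH1 also passed as lower at 7 and 15-16 min (-0.71 ± 0.15 and -0.88 ± 0.15, limma adjusted p = 0.0376 and 0.0079). STF1 also passed as lower at 15-16 and 60 min (-0.88 ± 0.17 and -0.85 ± 0.17, limma adjusted p = 0.0116 and 0.0096). STF2 passed at 7 min (-0.80 ± 0.18, limma adjusted p = 0.0482).

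SCO1, another copper protein of complex IV assembly, rose at 60 min by 0.75 ± 0.12 (limma adjusted p = 0.00329). It stood at -0.09, 0.30, 0.15, 0.20 and 0.58 in labelled ppt1 and at -0.13, 0.37, 0.27, 0.25 and 0.70 in wild type. CYC2, which acts in attaching haem to cytochrome c, passed as higher at 30 min (0.54 ± 0.14, limma adjusted p = 0.0338) and at 60 min (0.52 ± 0.14, limma adjusted p = 0.0384).

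The HAP genes encode the activators of respiratory genes. Of the 5, HAP3 passed as higher at 60 min (0.62 ± 0.17, limma adjusted p = 0.0465), where 3.97% of all genes did. HAP4, the regulatory subunit of the HAP complex, stood at -0.62, -0.11, 0.27, 0.53 and 0.53 in labelled ppt1 and at -0.09, -0.13, 0.17, -0.09 and 0.01 in wild type. Its 60 min change was 0.62 ± 0.24 (limma adjusted p = 0.121), and the higher later values are seen mainly in labelled ppt1 (difference of changes 0.85 ± 0.28, limma adjusted p = 0.992). HAP1, HAP2 and HAP5 passed at no time. For HAP1 the difference of changes ran the other way (-0.75 ± 0.21, limma adjusted p = 0.992). Both differences are set against the single 0 min array of each strain.

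Of the 6 enzymes that feed electrons into the chain beside complex II, NDE1, an external NADH dehydrogenase, passed as higher at 15-16, 30 and 60 min (0.56 ± 0.12, 0.66 ± 0.12 and 0.54 ± 0.12, limma adjusted p = 0.0244, 0.00727 and 0.0188). At those times 1.57%, 3.65% and 3.97% of all genes passed as higher. NDE1 stood at 0.26, 0.58, 0.90, 1.03 and 0.86 in labelled ppt1 and at 0.05, 0.32, 0.52, 0.61 and 0.53 in wild type. Of 6 carriers and channels, POR1, the main channel of the outer mitochondrial membrane, stood at 0.93, 0.33, 0.04, -0.37 and -0.22 in labelled ppt1 and at 1.30, 0.92, 0.72, -0.02 and 0.27 in wild type. It fell at 30 min by 1.31 (SE 0.13, limma adjusted p = 0.000213). POR1 also passed as lower at 15-16 and 60 min (-0.74 ± 0.13 and -1.09 ± 0.13, limma adjusted p = 0.00939 and 0.000621). It was lower in labelled ppt1 than in wild type (-0.495 ± 0.084, limma adjusted p = 0.0167), where 3.82% of all genes passed for a strain difference. MIR1, the phosphate carrier, passed as lower at 60 min (-0.52 ± 0.14, limma adjusted p = 0.0454). AAC3, an ADP/ATP carrier also among the 6, passed as higher at 15-16 min (0.855 ± 0.212, limma adjusted p = 0.0391). Of all genes, 5.64%, 7.85% and 8.4% passed as lower at 15-16, 30 and 60 min. Of 9 ubiquinone synthesis genes measured, COQ5 passed as lower, at 30 and at 60 min (-0.52 ± 0.13 at each, limma adjusted p = 0.0284 and 0.0282). Of all genes 7.85% and 8.4% did so at these times.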

How the data were processed

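Total RNA of 10 yeast samples was measured on 2-colour arrays, 1 array for each of 2 strains and 5 times. The deposited table holds log2 ratios per gene, made by the authors; the base of the log is assumed. Dyes, platform, background correction, normalization and genome build were not given in the sources used here. With a natural log all values would scale alike. Of its 5822 genes, 4901 had a value on all arrays, 1.81% of values were missing, and array medians as deposited were between -0.08 and 0.01. Locus names were matched to symbols through RefSeq (4895 genes had a symbol other than the locus name), and no coordinates are given.

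Each array was centred on its median. An additive model of time and strain was fitted with limma 3.58.1 in R 4.3.3 (4 residual degrees of freedom, prior 5.82), and a second with the difference in change after the shift (3 residual). The 15 and 16 min arrays were taken as one time. Genes with no value at a time were left out. P-values were adjusted by the Benjamini-Hochberg method over all 5812 genes (5782 in the second model), with a threshold of 0.05, two-sided. Scripts were tested on simulated data. The genes and lists were chosen with earlier results of these data known. Of the 53 genes, values on every array are given for those that passed a test, for isoform pairs and for up to 2 with the largest change in each complex. Genes outside the symbol rule could be named where they passed or their list had at most 8 genes, and array values are given for some of them. Their single calls were not checked under the alternatives listed next. Alternatives were no centring, quantile normalization, median absolute deviation scaling, complete genes, a trended robust variance, dropping the strain or time term, and leaving out each array. Sequences were not used here.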

Additional observations from a re-analysis of the deposited data

Results flagged for a closer look

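Each group had 1 array, so single arrays far from their group could not be sought. Among the 45 genes with 10 values, 3 (6.67%) had every later array above the 0 min array in one strain and below it in the other, as did 188 of 4901 genes (3.84%). SDH8, a chaperone of the flavin-bearing subunit of complex II, changed by -0.12, -0.22, -0.60 and -0.21 in labelled ppt1 and by 0.38, 0.03, 0.25 and 0.65 in wild type, a difference of -0.62 ± 0.28 (labelled ppt1 minus wild type; limma adjusted p = 0.992). COX14, a factor for synthesis and assembly of complex IV, had changes of 0.22, 0.04, 0.11 and 0.20 in labelled ppt1 and of -0.25, -0.12, -0.51 and -0.35 in wild type, a difference of 0.45 ± 0.23 (limma adjusted p = 0.992). For COX20, a chaperone of a mitochondrially encoded subunit, the changes were 0.20, 0.25, 0.17 and 0.20 in labelled ppt1 and -0.58, -0.53, -0.32 and -0.02 in wild type, a difference of 0.57 ± 0.26 (limma adjusted p = 0.992). All 4 changes of a strain share its 0 min array, and none of these differences passed the test.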

How the results depend on the processing

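The count of the 53 genes that passed moved with scaling and with single arrays, and the cause was not tested. At 7 min (2 genes) it was 1 with no centring, with quantile normalization, with median absolute deviation (MAD) scaling and without the strain term, and 0 to 2 leaving out 1 array (0 without wild type 7 min; 1 without wild type 0, 30 or 60 min or labelled ppt1 30 or 60 min). At 15-16 min (5) it was 3 with quantile normalization, 10 with complete genes, 9 with the trended robust variance, and 2 to 6 leaving out 1 array (2 without wild type 0 min). At 30 min (4) it was 1 with quantile normalization, MAD scaling or no strain term, and 0 to 7 leaving out 1 array (0 without labelled ppt1 30 min, 1 without either 0 min array, 7 without labelled ppt1 15 min). At 60 min (5) it was 3 with no centring, 0 with quantile normalization, 0 with MAD scaling, 3 with the trended robust variance, 0 without the strain term, and 0 to 5 leaving out 1 array (0 without either 0 min array or labelled ppt1 60 min, 1 without wild type 60 min, 2 without either 7 min array, 3 without either 30 min array). Over all times (5) it was 2 with quantile normalization or MAD scaling, 3 without the strain term, and 1 to 3 leaving out 1 array (1 without labelled ppt1 0 or 30 min, 3 without labelled ppt1 7 min, 2 without each other array). For 60 against 15-16 min (0) it was 1, CYC1, with quantile normalization or MAD scaling, and 0 to 1 leaving out 1 array (1 without either 0 min array). It was 0 under every alternative run for both strain tests, the second of which could not be fitted without either 0 min array.

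Over all genes, at 7, 15-16, 30 and 60 min, 53, 208, 438 and 451 passed with quantile normalization, 91, 256, 451 and 481 with MAD scaling, and 81, 210, 367 and 392 without the strain term. For the test over all times the last gave 246 genes, for 60 against 15-16 min it gave 13, and the strain difference passed for 125 genes with quantile normalization, 351 with complete genes and 0 without the time term. Complete genes gave 83 for 60 against 15-16 min. At 15-16 min complete genes gave 418 of 4901, and the trended robust variance gave 437 of 5812. Leaving out 1 array gave 47 to 189 genes at 7 min (47 without wild type 0 min), 163 to 399 at 15-16 min (163 without wild type 0 min), 268 to 731 at 30 min and 282 to 783 at 60 min (268 and 282 without labelled ppt1 0 min), 216 to 546 over all times (216 without labelled ppt1 0 min), 10 to 38 for 60 against 15-16 min (10 without wild type 16 min), and 35 to 119 for the strain difference, where the full set gave 222 (35 without wild type 7 min, 37 without labelled ppt1 7 min). The subunit median stayed below 0 at every time under every alternative, from -0.33 to -0.23, -0.54 to -0.31, -0.29 to -0.15 and -0.31 to -0.07; the last was -0.09 without wild type 60 min. The assembly factor median at 60 min turned to -0.13 with complete genes, and ran from -0.19 to 0.12 leaving out 1 array (-0.19 without labelled ppt1 0 min, -0.07 without labelled ppt1 15 min, -0.02 without wild type 60 min). COX5B at 60 min was 0.057 with quantile normalization. Quantile normalization ended the calls of SDH4 at all 4 times, of COX7 and COX17 at 30 min, of COX5B, COX11, COX23 and ATP14 at 60 min and of ATP5. MAD scaling ended the same calls except those of SDH4 and ATP5 at 15-16 min. The labels give no replicate numbers, and the strain term already sets each time against 0 min within strains. Each call rests on at most 2 arrays at its time (1 for COX9 at 30 min) and on both 0 min arrays.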

Other observations

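The tricarboxylic acid cycle supplies succinate to complex II. Of 10 measured cycle genes outside complex II, 3 passed as higher at 60 min and none as lower, against 3.97% higher and 8.4% lower over all genes. The list as a whole was evenly split there, with 5 of 10 estimates below 0 and a median of 0.03. ACO1, aconitase, stood highest at 60 min in both strains (up to 1.64, in wild type) and lowest at 0 min, and it rose at 60 min by 1.15 ± 0.14 (limma adjusted p = 0.000534). IDH1 and IDH2, the subunits of isocitrate dehydrogenase, rose at 60 min by 0.84 ± 0.13 (limma adjusted p = 0.00352) and 1.02 ± 0.14 (limma adjusted p = 0.00131). CIT1, citrate synthase, was lower in labelled ppt1 than in wild type over all times (-0.52 ± 0.11, limma adjusted p = 0.0367).

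Of 13 measured hypoxic and haem-repressed genes, 2 passed at 60 min, both higher, against 3.97% higher over all genes, with 6 of 13 estimates below 0 and a median of 0.13: the cell wall mannoprotein genes TIR1 (0.99 ± 0.16, limma adjusted p = 0.00295) and TIR2 (0.86 ± 0.18, limma adjusted p = 0.0132). AAC3, the hypoxic ADP/ATP carrier, was the 1 of the 13 that passed at 15-16 min, as higher (0.85 ± 0.21, limma adjusted p = 0.0391), against 1.57% higher over all genes. None of 7 haem synthesis genes passed at any later time. Of 18 genes for expression of mitochondrial DNA, NCA3 alone passed at a later time, as lower at 60 min (-0.84 ± 0.15, limma adjusted p = 0.00618). At 60 min 8.4% of all genes passed as lower. The wild type 0 min array gave 43% of its values with 4 decimals and the other 9 arrays gave none so, which was not examined further.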
